A study of Homo sapiens with 14 samples.

Results

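Knockdown of CFIm25 was compared with control in HEK 293 cells, an established human embryonic kidney line, by RNA-seq counts per gene. The comparison takes the 2 libraries labelled as CFIm25 knockdown and the 3 libraries labelled as control, out of 14 libraries in the series, and describes every expressed gene. Of 18006 genes in the count table, 12080 had enough reads to be tested. The knockdown cells were treated with siRNA delivered by Lipofectamine RNAiMAX and carry the genotype label of CFIm25 knockdown. The control cells are labelled wild type. The sources used here do not state a control siRNA for them, nor the siRNA sequence, the time after treatment or the protein level, so the knockdown is known here only from its transcript. The other 9 libraries (CFIm68 knockdown, CFIm25 overexpression and CFIm68 overexpression, 3 each) entered the same statistical fit to estimate the spread between replicates. No source says that the replicates are separate cultures, and the p-values therefore reflect library-to-library spread that may be purely technical. In such bulk RNA, a lower level in each cell and fewer cells that express a gene cannot be told apart.

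CFIm25, encoded by NUDT21, is the RNA-binding subunit of cleavage factor I, a complex of the machinery that cuts pre-mRNA and adds the poly(A) tail. It binds UGUA motifs upstream of cleavage sites, together with CFIm68 (CPSF6) or CFIm59 (CPSF7). Many genes have several possible cleavage sites in their last exon, and loss of CFIm25 is known to shift cleavage towards sites near the stop codon, which shortens 3′ untranslated regions (3′ UTRs). Counts per gene do not show which site was used, so the values below are transcript levels and not 3′ UTR lengths.

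The knockdown libraries held 22464083 and 33895308 counts, and the control libraries 17734490 to 18385536. Levels are given as CPM, counts scaled to library size with TMM factors, and changes as log2 of knockdown over control with their standard error (SE). A gene was called when edgeR's quasi-likelihood test gave a Benjamini-Hochberg adjusted p under 0.05. Of 14 tested markers of HEK 293 and embryonic kidney cells 1 was called (7.14%), against 47.6% of all tested genes. It was the intermediate filament gene VIM, which was lower (-0.54). The summed CPM of these markers was 1841 and 1809 in the knockdown libraries and 2013 to 2108 in the control libraries. Of the markers of other cell types, 3 tested genes of blood cells summed to at most 2.25 CPM in any of the 5 libraries and 4 of keratinocyte or HeLa-type cells to at most 8.40 CPM. Fibroblast markers, 5 tested, summed to 57.6 and 61.5 CPM in knockdown and 52.8 to 57.4 CPM in control, and 4 adult kidney markers to 167 and 188 CPM against 165 to 185 CPM. Of these other cell types' markers 1 of 3, 2 of 4, 2 of 5 and 1 of 4 were called higher and 0 lower. Over all tested genes 24.4% were called higher and 23.2% lower. The part of these markers in the results below was not tested.

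NUDT21 itself (chr16:56429133-56452199, hg38) stood at 54.6 and 52.9 CPM in the knockdown libraries, against 537, 500 and 505 CPM in control. Both knockdown libraries lay far below every control library, a 9.57-fold fall (log2 change -3.26 ± 0.08, edgeR adjusted p = 3.5e-23). CPSF6 (chr12:69239537-69274358), which encodes the partner subunit CFIm68, moved the other way, with 526 and 540 CPM in knockdown against 274, 262 and 268 CPM in control (0.99 ± 0.05, edgeR adjusted p = 1.7e-14). CPSF7 (chr11:61402641-61430031), the gene of the alternative partner CFIm59, was lower at 201 and 208 CPM, against 265, 272 and 282 CPM in control (-0.42 ± 0.06).

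In all, 5746 genes were called, 47.6% of those tested, with 2949 higher (24.4%) and 2797 lower (23.2%). Most of these changes were small. The median size among called genes was 0.38 on the log2 scale, and 1471 called genes changed by at least 1.5-fold. Changes of at least 2-fold were found in 210 genes higher (1.74%) and 270 lower (2.24%), and of at least 4-fold in 24 and 33. In 5667 of the called genes the knockdown libraries did not overlap the control libraries. Over all 12080 tested genes, called or not, both knockdown libraries lay above every control library in 3966 and below in 3783. Reads of a gene that overlaps a neighbour may belong to that neighbour. Of the genes named below, this holds on the same strand for AGO2, ASNS, CCND2, COL7A1, CPSF1, DDIT3, DGCR8, HOXD10, LCAT, MAMDC4, MIR34AHG, NDUFS1, OPN3, PHLDA3, RAB27A, RPL36, RRM2 and SYNCRIP. If the counting did not use strand, it also holds, through a gene on the other strand, for AGO1, AGO3, CDKN1A, CPSF6, CPSF7, CRELD2, DICER1, EIF4B, GARS1, GPBP1L1, PAK1, PDIA3, RAB30-DT, RPL30, SLC7A11, SNX16, THOC2, TMSB10, TSC22D3, VIM and ZNF480.

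**Figure D1:**
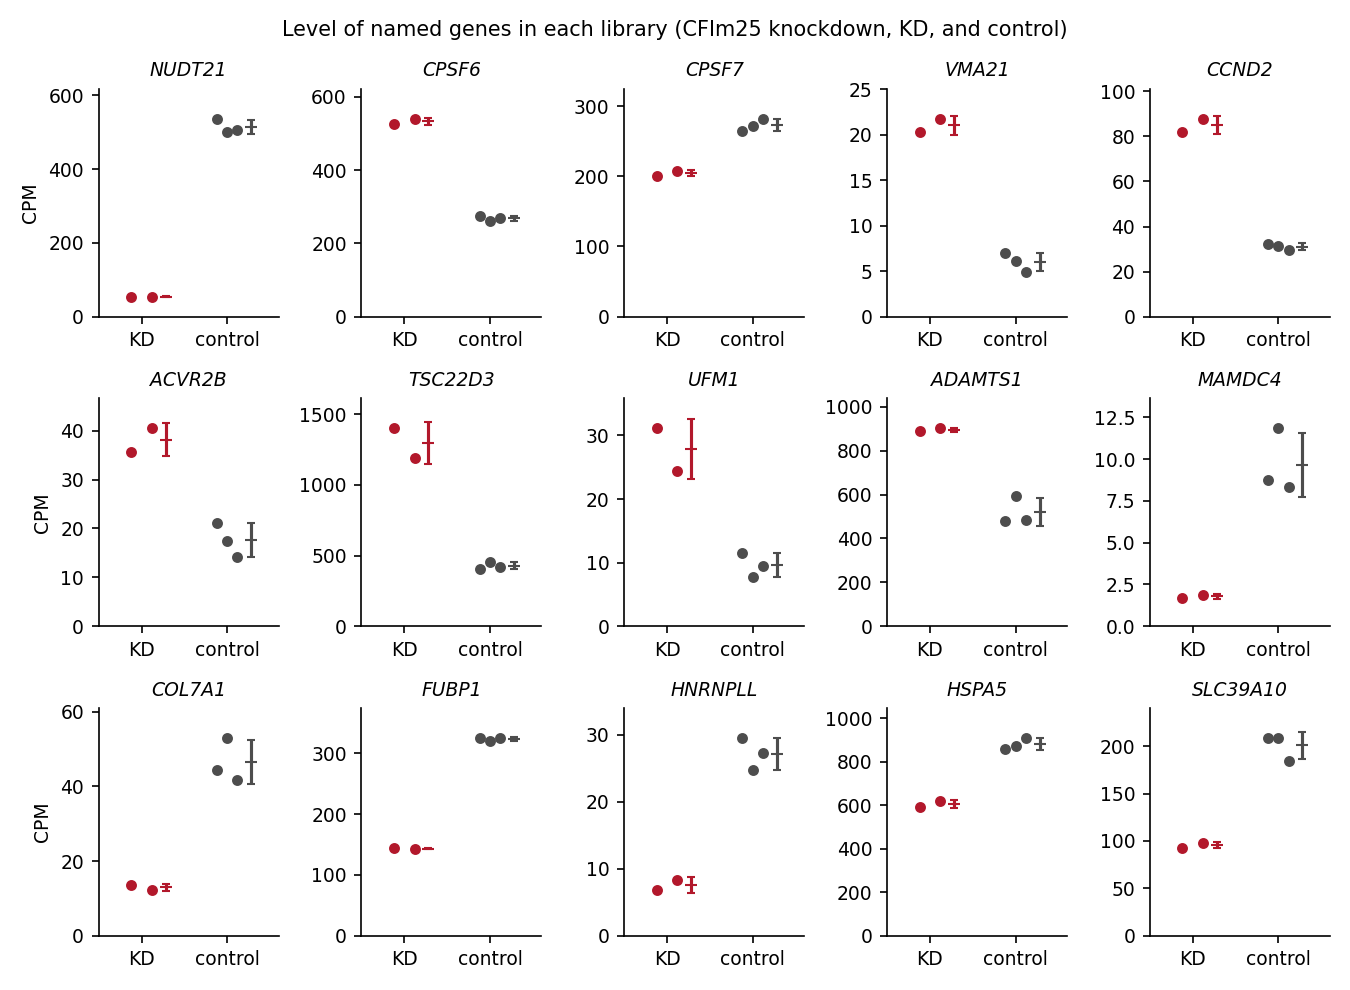
Level in CPM (vertical axes, starting at 0) of 15 named genes in each library, with the 2 CFIm25 knockdown libraries (KD, red) left of the 3 control libraries (grey); bars beside the points are the mean ± SD. In each of the 15 panels the knockdown libraries lie wholly above or wholly below the control libraries, from NUDT21 at 54.6 and 52.9 CPM against 500 to 537 CPM to TSC22D3 at 1402 and 1189 CPM against 408 to 455 CPM. Genes named for the largest changes were chosen under that condition.

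Position on the chromosomes moved with the change, and these values touch many genes named below. Over genes that averaged 5 CPM or more, the median log2 change was 0.20 on chromosome 3, where 44.9% of tested genes were higher and 8.57% lower, and -0.19 on chromosome 16, where 12% were higher and 45.2% lower. Both knockdown libraries had these steps, with medians of 0.20 and 0.19 on chromosome 3 and -0.21 and -0.16 on chromosome 16, while the control libraries lay between -0.01 and 0.02 on these chromosomes. Smaller steps were present on chromosomes 14 (0.13), 21 (0.13) and 20 (0.11) and, downwards, on 6 (-0.10) and 22 (-0.09). The steps were regional in places: of 222 windows of 40 neighbouring genes, 27 had a median beyond 0.2 in size, with -0.46 in the window at the start of chromosome 16 and 0.32 in the last window of X. Against the same controls, CFIm68 knockdown had medians of 0.19 and -0.18 on chromosomes 3 and 16. The steps were not limited to knockdown, as CFIm25 overexpression had 0.28 and -0.21 there. CFIm68 overexpression went the other way, with -0.16 and 0.10. Set directly against CFIm68 knockdown, which uses no control library, CFIm25 knockdown had chromosome medians between -0.03 and 0.03, and 0 of the 222 windows passed 0.2. Whether the chromosome content of the cells differed was not tested. With the median of 50 neighbouring genes removed from each library, 2730 genes were higher and 2727 lower, 78.7% of the calls and 95.8% of the 2-fold calls stayed in the same direction, and 18 calls turned round. Where this moved a named gene by more than 1.5 times, the value is given beside it as the value relative to neighbours.

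**Figure D2:**
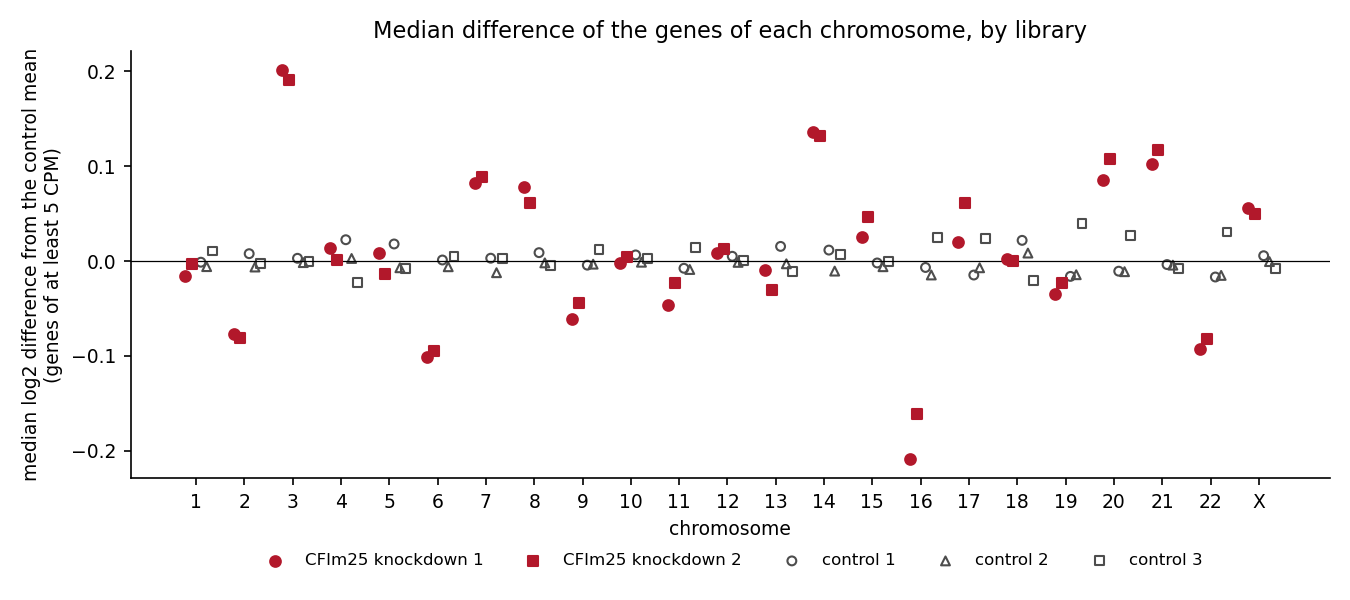
Median log2 difference from the control mean (vertical axis) over the genes of each chromosome with at least 5 CPM (horizontal axis), with both CFIm25 knockdown libraries as filled red symbols left of the 3 control libraries as open grey symbols. The knockdown libraries lie together at 0.20 and 0.19 on chromosome 3 and at -0.21 and -0.16 on chromosome 16.

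Genes that were published as having CFIm-dependent 3′ ends were mostly higher. Of 13 tested members of that list, 11 rose and 2 fell, against 24.4% and 23.2% of all tested genes, with a median of 0.34. These genes were chosen for responses to CFIm loss reported elsewhere. The end of the annotated 3′ UTR holds the complex's own motif in many of them. TGTA, the DNA form of UGUA searched on the transcript's strand, was present in the last 100 bases of the longest GENCODE 29 3′ UTR in 10 of the 13, compared with 55.4% of 11649 tested genes that have such a UTR. The stretches of 30 bases with the most copies are shown for 4 members that rose or fell, from the GENCODE 29 transcripts on hg38, with each TGTA in capitals.
VMA21, chrX:151409302-151409331, plus strand: TGTAgctTGTAattTGTAtaaaTGTAccat
DICER1, chr14:95086247-95086276, minus strand: TGTAataatTGTAgccaagtaaatctccaa
ACVR2B, chr3:38493112-38493141, plus strand: TGTAtatgaaaataaaataataataaaaca
FHL1, chrX:136211320-136211349, plus strand: TGTAtccttacagaaataaagcagcatatg
A match is a description and not a measured binding site, and FHL1, which fell, holds one as well.

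VMA21, an assembly factor of the vacuolar proton pump, stood at 20.3 and 21.7 CPM in knockdown, against 6.98, 6.12 and 4.94 CPM in control, with every knockdown value above every control value (1.81 ± 0.14, edgeR adjusted p = 3.4e-11). CCND2, the gene of the G1 cyclin D2, had 82.1 and 87.8 CPM against 32.4, 31.4 and 29.4 CPM (1.45 ± 0.07). ACVR2B, an activin receptor on chromosome 3, had 35.7 and 40.5 CPM against 21.1, 17.5 and 14.3 CPM (1.12 ± 0.10, and 0.88 relative to neighbours). All 3 rose without overlap between the groups. GSK3B, a kinase of WNT and insulin signalling also on chromosome 3, rose less (0.55 ± 0.07, and 0.36 relative to neighbours). DICER1, the nuclease that cuts microRNA precursors, rose at a low level, with 5.08 and 7.01 CPM against 2.89, 2.84 and 2.33 CPM (1.19 ± 0.18). FHL1 fell to 129 and 126 CPM, against 169, 158 and 166 CPM (-0.36 ± 0.06), and so did the kinase gene PAK1 at 110 and 106 CPM, against 123, 134 and 129 CPM (-0.25 ± 0.06). Compared directly with CFIm68 knockdown, 5 of the 13 were lower in CFIm25 knockdown (38.5%) and 3 higher (23.1%), against 11.1% and 13.2% of all tested genes. CCND2 differed most, with a mean of 85.0 CPM in CFIm25 knockdown and 150 CPM in CFIm68 knockdown (-0.82 ± 0.06, edgeR adjusted p = 4.7e-11).

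Among genes of the microRNA silencing complex, TNRC6B, the scaffold that links Argonaute to deadenylation, had 48.2 and 55.5 CPM in knockdown, against 27.5, 25.3 and 21.2 CPM in control (1.08 ± 0.09). The Argonaute genes AGO2 (0.50 ± 0.08) and AGO4 (0.53 ± 0.07) rose, whereas AGO1 (-0.03 ± 0.09) and AGO3 (-0.06 ± 0.09) did not pass the test. Thus 3 of 5 tested members rose and 0 fell, with 24.4% of all tested genes higher and 23.2% lower. All 5 were lower in CFIm25 than in CFIm68 knockdown in the direct comparison, by log2 differences of -0.27 to -0.56. In that comparison 11.1% of all tested genes were lower and 13.2% higher. Among 8 tested genes of microRNA processing, DICER1 alone rose and 5 fell, including both partners in the nuclear Microprocessor, DROSHA (-0.31 ± 0.06) and DGCR8 (-0.37 ± 0.07). Relative to neighbours 3 of the 8 fell (37.5%, against 22.6% of all tested genes), and the difference between these 2 small lists was not tested.

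Among genes with at least 5 CPM, the rises beyond 2-fold reached several unrelated functions. UFM1, a ubiquitin-like protein modifier of the endoplasmic reticulum, had 31.1 and 24.5 CPM in knockdown against 11.5, 7.81 and 9.54 CPM in control (1.52 ± 0.11). No other tested gene of UFM1 conjugation rose, and 1 of 7 fell (2 without the first knockdown library, the first control or the third control). With UFM1 counted, 14.3% of this small list rose and 14.3% fell, against 24.4% and 23.2% of all tested genes. PCDH19, a protocadherin adhesion gene, had 122 and 118 CPM against 43.8, 45.2 and 41.1 CPM (1.47 ± 0.07). The metallothionein gene MT2A, which encodes a zinc-binding protein, had 19.7 and 18.7 CPM against 7.94, 7.21 and 7.38 CPM (1.35 ± 0.10). Both knockdown libraries stood above every control library in all of these, a condition under which the largest changes were chosen. OPN3, an opsin (1.41 ± 0.12), ALDH1A1, a retinaldehyde dehydrogenase (1.37 ± 0.14), UBE2L6, a conjugating enzyme of ISG15 (1.37 ± 0.08), and SERPINF1, the gene of a secreted serpin (1.36 ± 0.07), rose to a similar degree.

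Among genes that averaged 200 CPM or more, TSC22D3, a glucocorticoid-induced leucine zipper gene, had the largest rise, with 1402 and 1189 CPM in knockdown against 408, 455 and 422 CPM in control (1.60 ± 0.06). TMSB10, an actin-monomer binding thymosin, had 375 and 343 CPM against 194, 178 and 200 CPM (0.91 ± 0.07). ADAMTS1, a secreted metalloprotease, had 888 and 902 CPM against 480, 595 and 485 CPM (0.78 ± 0.07). Apart from NUDT21, the steepest fall at that level was in FUBP1, a single-strand DNA and RNA binding regulator, with 144 and 143 CPM against 325, 320 and 326 CPM (-1.18 ± 0.06, edgeR adjusted p = 2.5e-15). GPBP1L1, related to a promoter-binding factor, had 142 and 141 CPM against 247, 240 and 240 CPM (-0.78 ± 0.05). FASN, the fatty acid synthase gene, stood at 1841 and 2228 CPM against 3361, 3226 and 3194 CPM (-0.68 ± 0.08, and -0.37 with a correction for GC content and length). RHOT2, a mitochondrial GTPase gene in the shifted first window of chromosome 16, fell by 0.74 on the log2 scale, and by 0.28 relative to neighbours.

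The steep fallers had several features of gene structure in common. Of the 20 genes with the largest fall at 5 CPM or more, 11 were in the highest of 5 equal bins of GC content, and 11 started within 7238 bases of the end of an upstream gene on the same strand, the nearest of 5 equal bins. Their median 3′ UTR was 336 bases, against 1344 bases over all tested genes and 2243 bases for the 20 largest rises. MAMDC4, which encodes a membrane protein with MAM domains, had 1.68 and 1.89 CPM in knockdown against 8.74, 11.9 and 8.32 CPM in control (-2.42 ± 0.20). COL7A1, the anchoring-fibril collagen, had 13.7 and 12.2 CPM against 44.4, 53 and 41.8 CPM (-1.85 ± 0.12). RHBDL1, a rhomboid-family gene, had 7.08 and 7.07 CPM against 22.6, 28.2 and 23.7 CPM (-1.81 ± 0.14). LCAT, a cholesterol-esterifying enzyme, had 6.04 and 4.31 CPM against 15.5, 19 and 16.7 CPM (-1.75 ± 0.15), and the dipeptidase gene DPP7 had 2.77 and 2.49 CPM against 7.43, 9.07 and 8.71 CPM (-1.69 ± 0.17). The groups did not overlap in any of these, which was a condition for choosing the largest changes. Of the 20, 9 overlap a neighbour on their own strand, MAMDC4, COL7A1 and LCAT among them, so their counts may include its reads in either group. Such overlap was present in 4 of the 20 largest rises and in 1923 of all 12080 tested genes.

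Across all genes the same properties showed a gradient. In the highest of the 5 GC bins 10.2% of genes were higher and 37.9% lower (median -0.18), whereas in the lowest bin 28.2% were higher and 21.0% lower. Against the same controls, CFIm68 knockdown had a median of -0.14 in the highest GC bin, and CFIm25 overexpression -0.16. Directly against CFIm68 knockdown, CFIm25 knockdown had -0.05 there. The bin closest to an upstream gene had 19.6% higher and 30.6% lower, and held 109 of the 270 genes at least 2-fold lower. Its median was -0.08, with -0.07 in CFIm68 knockdown and -0.08 in CFIm25 overexpression. Of genes in both of these bins 8.9% of 820 were higher and 44.0% lower, and genes in neither had 28.5% of 8056 higher and 18.6% lower. Short coding sequences went with rises, at 33.7% higher and 16.7% lower in the shortest bin, against 18.9% and 29.1% in the longest. The median of the shortest bin was 0.09, with 0.07 in CFIm68 knockdown but -0.08 in CFIm25 overexpression. For 3′ UTR length the longest bin had 29.99% higher and 20.5% lower, and the shortest 22.6% and 25.02%. Genes with 5 or more annotated 3′ ends were higher in 31.0% and lower in 17.8%, compared with 21.5% and 26.4% of genes with 1 annotated end. The number of TGTA motifs in the last 100 bases of the 3′ UTR went with no such gradient: 23.8% of genes with 0 copies were higher and 25.9% of those with 2, while 23.9% and 22.1% were lower. Counted per length over the whole 3′ UTR, TGTA did go with the change at its sparse end, with 18.2% higher and 29.4% lower in the bin with the fewest motifs per kb, 27.3% and 20.3% in the next to densest bin, and 25.9% and 21.9% in the densest. Genes are not independent replicates and these properties are correlated, so the shares are descriptions without a test.

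**Figure D3:**
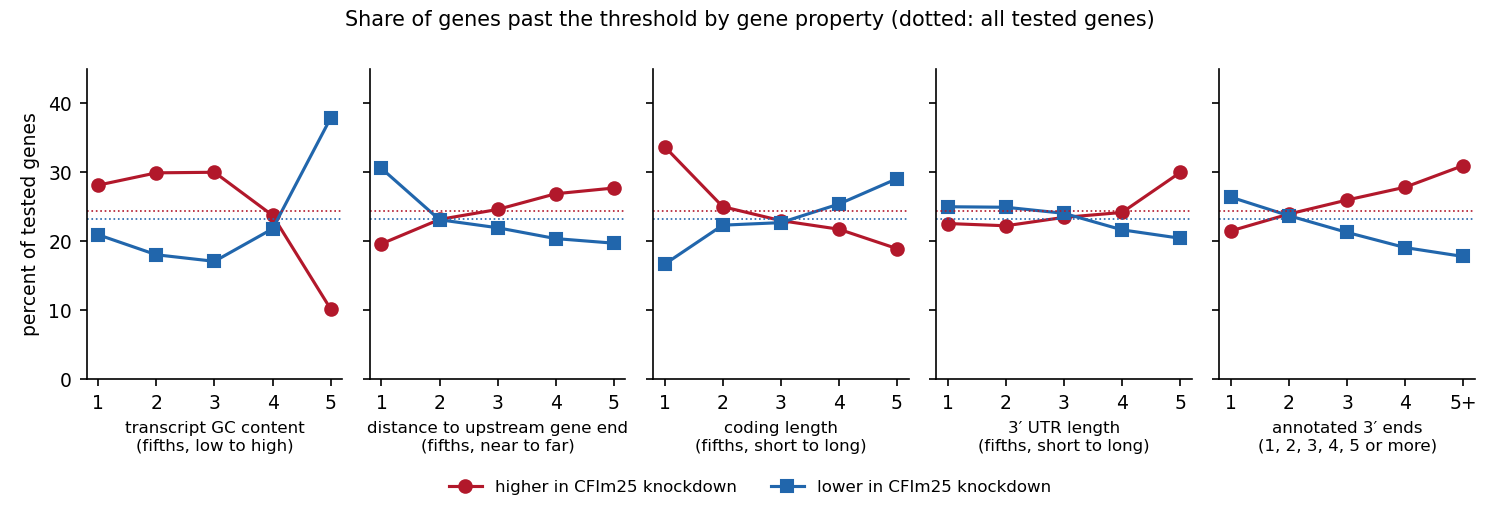
Percent of tested genes higher (red circles) and lower (blue squares) in CFIm25 knockdown than in control, in 5 bins of 5 gene properties, with the share over all tested genes dotted (24.4% higher, 23.2% lower). The lower share reaches 37.9% in the highest GC bin and 30.6% in the bin closest to an upstream gene end.

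Genes of the amino acid response rose, and none fell. ATF4 is the transcription factor whose translation increases when cells lack amino acids or load their endoplasmic reticulum, and its targets make, import and attach amino acids to tRNA. Of 28 tested members, 21 were higher (75%) and 0 lower, with a median of 0.59. Over all tested genes 24.4% were higher and 23.2% lower, with a median of 0.00. ATF4 binds composite elements of the form TGATGNAA. That motif, searched on both strands of the 250 bases before to 50 after the gene start in the RefSeq promoter table (GRCh38.p14), occurred in 5 of the 22 members with an entry, and in 6 of 15 cytosolic aminoacyl-tRNA synthetase genes. It occurred in 3.7% of 27305 promoters in the table and in 1.8% of those of the tested genes. Stretches with the motif, on either strand, in capitals are shown for genes described below.
CHAC1, chr15:40953253-40953278, plus strand: cccctgccgTTGCATCActcctgcca
ASNS, chr7:97872460-97872485, minus strand: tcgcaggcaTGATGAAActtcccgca
SLC7A1, chr13:29595665-29595690, minus strand: gcgcactgcTGATGAAAcctggcgcc
SLC3A2, chr11:62881727-62881748, plus strand: caggactccTTACATCAgctcc
AARS1, chr16:70289677-70289702, minus strand: ttctcgcagTTGCATCAgccaagtta
A match in this window is not evidence of binding, and 2 of these 5 genes did not pass the test.

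ATF4 itself stood at 337 and 291 CPM in knockdown, against 216, 198 and 215 CPM in control (0.58 ± 0.07). CHAC1, which degrades glutathione, rose at a low level, with 7.95 and 4.55 CPM against 1.42, 1.31 and 1.22 CPM (2.20 ± 0.25). ASNS, asparagine synthetase, had 645 and 428 CPM against 245, 270 and 256 CPM (1.06 ± 0.09, edgeR adjusted p = 3.9e-10). The first knockdown library was above the second in all of these, and both were above the controls. SLC7A11, the cystine importer, had 222 and 136 CPM against 85.1, 85.5 and 74.3 CPM (1.13 ± 0.12, and 0.74 without the first knockdown library). PCK2, the mitochondrial phosphoenolpyruvate carboxykinase, had 87.5 and 61.7 CPM against 36.2, 37.0 and 34.3 CPM (1.05 ± 0.11). DDIT3, the stress factor CHOP, depended most on 1 library, with 37.9 and 22.4 CPM against 17.5, 18.2 and 19.2 CPM. Its log2 change was 0.69 ± 0.13 with both knockdown libraries, 0.29 without the first and 1.05 without the second. The transporter genes SLC7A1 (0.09 ± 0.06) and SLC3A2 (0.01 ± 0.06) did not pass, although relative to neighbours they did, at 0.22 and 0.17.

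The knockdown libraries differed in this list. The first was above the second in 26 of 28 members (92.9%), compared with 49.6% of all tested genes. Both lay above every control library in 22 of the 28, and in 3966 of all 12080 tested genes. Without the first knockdown library 17 members were higher and 0 lower, with a median of 0.36, and without the second 23 and 0, with a median of 0.72. What set these 2 libraries apart was not tested. Relative to neighbouring genes 23 of 28 rose.

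In the direct comparison with CFIm68 knockdown, which uses no control library, 22 of 28 were higher in CFIm25 knockdown and 0 lower, against 13.2% and 11.1% of all tested genes, with a median of 0.49. ATF4 averaged 314 CPM in CFIm25 knockdown and 155 CPM in CFIm68 knockdown (1.02 ± 0.07, edgeR adjusted p = 4.9e-12). Against the CFIm25 overexpression libraries, by contrast, 0 of 28 were higher in CFIm25 knockdown and 23 lower, so the list was higher still where CFIm25 was overexpressed.

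The cytosolic aminoacyl-tRNA synthetases charge tRNA with amino acids and include known ATF4 targets. Of 19 tested 12 were higher (63.2%) and 2 lower (10.5%), with a median of 0.28, against 24.4% and 23.2% of all tested genes. In the direct comparison with CFIm68 knockdown 11 were higher (57.9%) and 0 lower, against 13.2% and 11.1%. SARS1, for serine, had 401 and 363 CPM in knockdown against 229, 220 and 238 CPM in control (0.74 ± 0.05). GARS1, for glycine, had 376 and 314 CPM against 238, 241 and 248 CPM (0.51 ± 0.06). AARS1, for alanine, had 625 and 592 CPM against 465, 452 and 471 CPM (0.40 ± 0.05). VARS1, for valine, fell at a low level, with 2.45 and 3.35 CPM against 5.79, 5.24 and 5.05 CPM (-0.85 ± 0.20). Leaving out either knockdown library, the first control or the third control left 1 of the 2 falls called.

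Targets of p53, the stress-activated transcription factor that halts the cell cycle, were lower. HEK 293 cells carry adenoviral E1A and E1B proteins that act on p53, so its activity in this line is not that of a normal cell. Of 27 tested targets, 0 were higher and 20 lower (74.1%, median -0.42), against 24.4% and 23.2% of all tested genes. Relative to neighbours 0 were higher and 22 lower (81.5%), against 22.6% of all tested genes in each direction. Against the same controls, 2 were higher and 12 lower (44.4%) in CFIm68 knockdown, and 2 and 14 (51.9%) in CFIm25 overexpression. Over all tested genes 28.1% and 29.1% were lower in those groups. PHLDA3, an inhibitor of AKT signalling, had 19.2 and 18.7 CPM in knockdown against 48.3, 45.3 and 48.5 CPM in control (-1.32 ± 0.08, edgeR adjusted p = 4.8e-13). BAX, the pore-forming death effector, had 19.7 and 22.1 CPM against 33.4, 33.0 and 35.8 CPM (-0.70 ± 0.08). CDKN1A, the cell cycle inhibitor p21, had 20.7 and 22.3 CPM against 34.1, 35.5 and 29.7 CPM (-0.62 ± 0.11). In these 3 genes the groups did not overlap. In the direct comparison 11 of the 27 were lower in CFIm25 than in CFIm68 knockdown (40.7%) and 2 higher (7.41%). Over all tested genes 11.1% were lower and 13.2% higher in that comparison, with PHLDA3 at -1.05 ± 0.08 and CDKN1A at -0.67 ± 0.11. Against control, leaving out the second knockdown library left 14 lower.

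**Figure D4:**
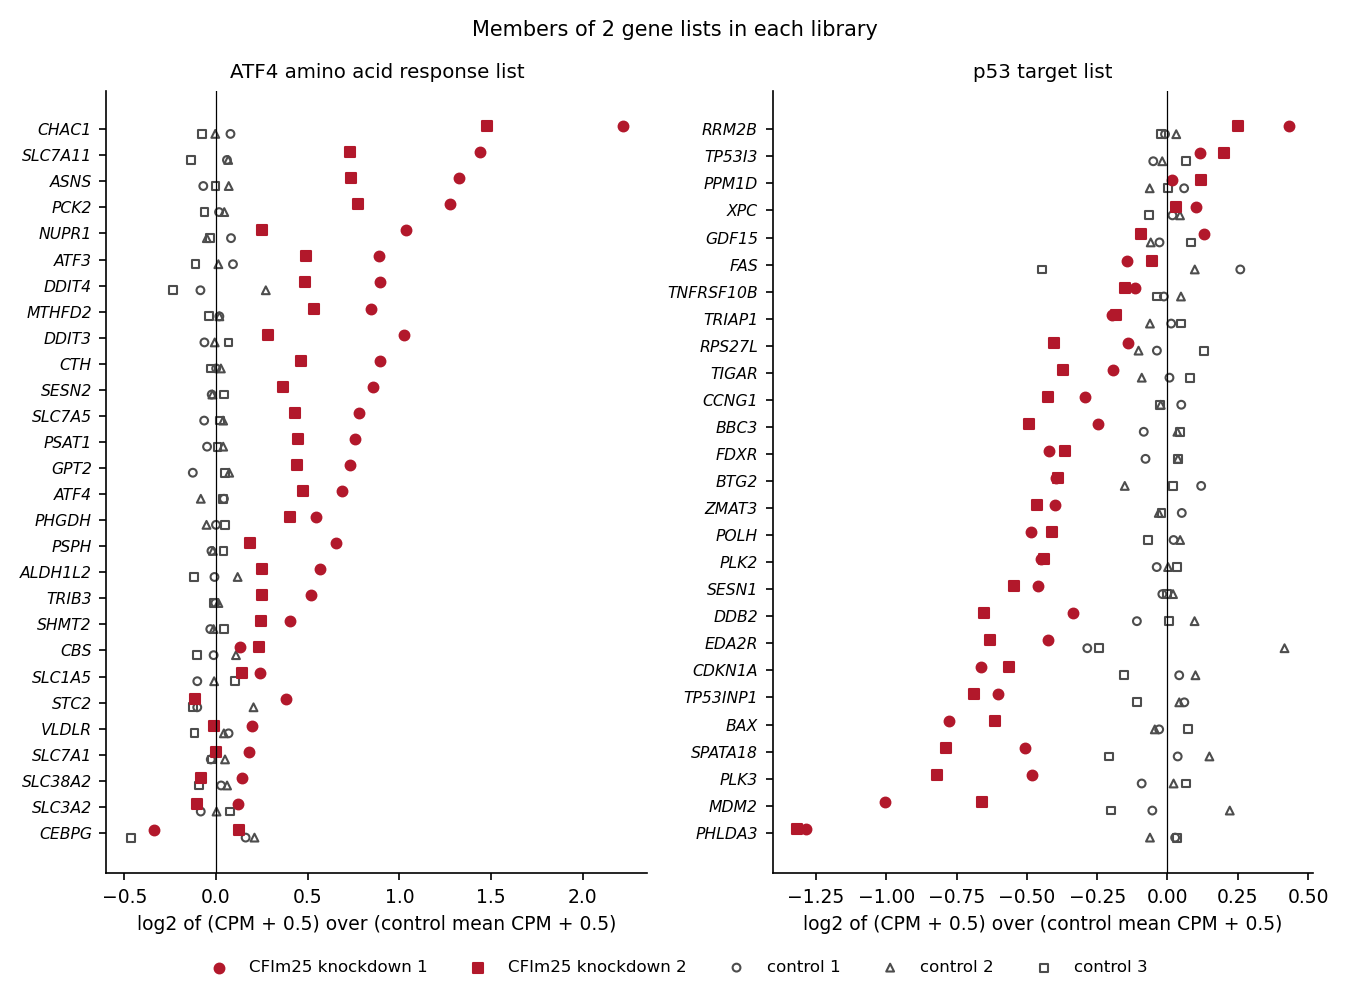
Log2 of the level in each library over the control mean (horizontal axes, 0.5 CPM added to both) for the members of the ATF4 amino acid response list and the p53 target list (rows, by size of change), with CFIm25 knockdown libraries as filled red symbols and control libraries as open grey ones. In 26 of 28 ATF4 list members the first knockdown library lies right of the second, and 20 of 27 p53 targets were called lower.

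Cytosolic ribosomal protein genes rose together by a small amount. Of 77 tested, 52 were higher (67.5%) and 1 lower (1.3%), with a median of 0.28, against 24.4% and 23.2% of all tested genes. RPL36 had 1165 and 1060 CPM in knockdown against 685, 633 and 722 CPM in control (0.71 ± 0.06), and RPL30 had 414 and 398 CPM against 237, 231 and 247 CPM (0.77 ± 0.05). The 1 that fell, RPS27L (-0.27 ± 0.08), is a ribosomal protein paralog that is induced by p53 and belongs to that list too, and its call was lost without the second knockdown library (-0.14, edgeR adjusted p = 0.29) or the third control (-0.20, edgeR adjusted p = 0.063). The first knockdown library was above the second in 69 of the 77. Ribosomal protein genes are short, with a median coding length of 456 bases, against 1419 bases over all tested genes. With a correction for GC content and length 40 were higher and 8 lower, with a median of 0.10. In the direct comparison with CFIm68 knockdown 1 was higher (1.3%) and 2 lower (2.6%), against 13.2% and 11.1% of all tested genes. Ribosomal proteins have many processed pseudogenes, and the treatment of reads that match several places is not stated.

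Initiation factors of translation had 21 of 40 members higher (52.5%) and 3 lower (7.5%, median 0.16), against 24.4% and 23.2% of all tested genes. EIF4B, which assists the helicase of the cap complex, had 803 and 800 CPM in knockdown against 514, 499 and 491 CPM in control (0.68 ± 0.05). EIF1AX, which helps select the start codon, had 414 and 387 CPM against 542, 506 and 511 CPM (-0.38 ± 0.06). The nuclear genes of the respiratory chain also leaned upward. In complex I 19 of 38 were higher (50%) and 5 lower (13.2%). In complexes II to V 20 of 39 were higher (51.3%) and 2 lower (5.13%). NDUFB1, a complex I subunit on chromosome 14, had 174 and 165 CPM against 106, 96.6 and 113 CPM (0.69 ± 0.06, and 0.42 relative to neighbours). COX6C, of cytochrome c oxidase, had 223 and 188 CPM against 129, 127 and 131 CPM (0.68 ± 0.07). NDUFS1, the largest complex I subunit, fell by 0.34 on the log2 scale, and by 0.15 relative to neighbours. The assembly factor SDHAF4 of succinate dehydrogenase had 18.4 and 16.4 CPM against 5.50, 5.90 and 5.82 CPM (1.59 ± 0.11). With the correction for GC content and length, complex I had 18 higher and 11 lower and complexes II to V had 14 and 5. Leaving out either knockdown library or the third control left 1 of the 2 falls in complexes II to V.

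**Figure D5:**
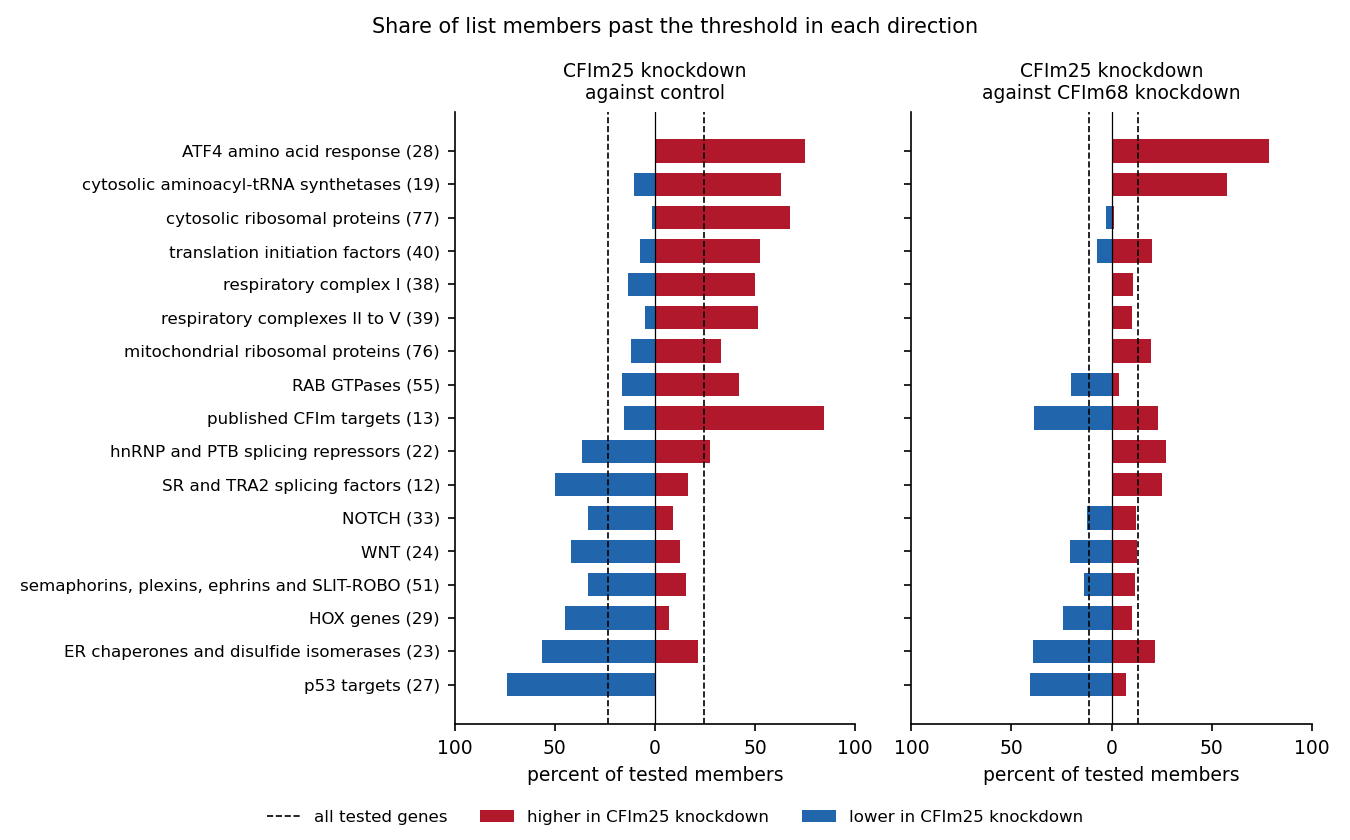
Percent of tested members (number in brackets) called higher (red, right) and lower (blue, left) in CFIm25 knockdown, against control (left panel) and against CFIm68 knockdown (right panel), for 17 gene lists; dashed lines are the shares over all tested genes, 24.4% and 23.2% against control and 13.2% and 11.1% against CFIm68 knockdown. The ATF4 and tRNA synthetase lists exceed the dashed line for higher genes in both panels, the ribosomal protein list only in the left one.

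Among SR and TRA2 proteins, which promote exon inclusion, 2 of 12 rose and 6 fell, against 24.4% and 23.2% of all tested genes. SRSF11 had 19.2 and 18.2 CPM in knockdown against 24.6, 32.8 and 29.1 CPM in control (-0.63 ± 0.10), and TRA2A had 42.3 and 36.8 CPM against 54.5, 57.8 and 57.2 CPM (-0.52 ± 0.07). SRSF3 rose slightly (0.26 ± 0.05). Leaving out either knockdown library left 1 rise. Among the hnRNP and PTB group, which often represses exons, 6 of 22 rose (27.3%) and 8 fell (36.4%), and without the second knockdown library 3 and 5. Relative to neighbours 22.7% of that group rose and 27.3% fell, near the 22.6% of all tested genes in each direction. HNRNPLL had 6.76 and 8.36 CPM against 29.6, 24.7 and 27.2 CPM, 3.54-fold lower (-1.83 ± 0.11, edgeR adjusted p = 4.8e-13). HNRNPR had 135 and 127 CPM against 210, 198 and 209 CPM (-0.65 ± 0.06), and its close relative SYNCRIP had 780 and 804 CPM against 509, 471 and 494 CPM (0.69 ± 0.06). In the direct comparison HNRNPLL was higher in CFIm25 than in CFIm68 knockdown (0.66 ± 0.13). THOC2, a subunit of the THO complex that couples transcription to mRNA export, had 70.8 and 71.3 CPM against 120, 123 and 120 CPM (-0.77 ± 0.06).

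Among the other complexes of 3′ end formation, CPSF recognises the poly(A) signal and cuts the RNA. Of 7 CPSF genes, 2 rose (28.6%) and 1 fell (14.3%), against 24.4% and 23.2% of all tested genes. CPSF2, the partner of the endonuclease, had 380 and 389 CPM in knockdown against 271, 260 and 248 CPM in control (0.57 ± 0.06, and 0.29 relative to neighbours on chromosome 14). CPSF1, the large scaffold subunit, had 308 and 312 CPM against 427, 439 and 442 CPM (-0.49 ± 0.06), a call that was lost relative to neighbours (-0.10, edgeR adjusted p = 0.09). SSU72, a phosphatase of RNA polymerase II, fell by 0.54 on the log2 scale, and by 0.22 relative to neighbours. In the list of CFIIm, poly(A) polymerases and termination factors, 6 of 14 rose (42.9%) and 5 fell (35.7%). Relative to neighbours 2 rose (14.3%) and 4 fell (28.6%), against 22.6% of all tested genes in each direction. Without the first knockdown library 6 rose and 3 fell.

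HOX, NOTCH and WNT genes fell more often than they rose. The shares lower were 44.8%, 33.3% and 41.7%, and the shares higher 6.9%, 9.09% and 12.5%. Over all tested genes 23.2% were lower and 24.4% higher. Of 29 tested HOX genes, which set position along the body axis, 2 rose and 13 fell (median -0.24). HOXA2 had 2.09 and 2.16 CPM in knockdown against 6.01, 6.83 and 6.88 CPM in control (-1.63 ± 0.16), and it was also lower than in CFIm68 knockdown (-1.34 ± 0.16). HOXD10 had 45.4 and 43.2 CPM against 96.7, 115 and 95.3 CPM (-1.21 ± 0.09). Without the first control 1 HOX gene rose and 12 fell. Against the same controls, 5 HOX genes were higher and 12 lower in CFIm68 knockdown, and 7 and 14 in CFIm25 overexpression. The shares lower were 41.4% and 48.3%, against 28.1% and 29.1% of all tested genes. In the NOTCH list 3 of 33 rose and 11 fell, with NOTCH1, the receptor, at 25.5 and 29.7 CPM against 52.4, 56.0 and 52.8 CPM (-0.95 ± 0.09). In the WNT list 3 of 24 rose and 10 fell, and without the second knockdown library 1 and 9. FZD5, a WNT receptor, had 54.2 and 53.3 CPM against 92.7, 95.6 and 94.2 CPM (-0.81 ± 0.06), and LGR4, a receptor for R-spondins, had 98.3 and 96.0 CPM against 159, 160 and 157 CPM (-0.71 ± 0.07). IRS1, the insulin receptor substrate, had 5.22 and 4.58 CPM against 11.8, 10.7 and 11.3 CPM (-1.21 ± 0.12), within a PI3K, AKT and mTOR list where 15 of 39 rose and 9 fell, and relative to neighbours 16 and 5.

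Chaperones of the endoplasmic reticulum fell more often than they rose. Of 23 tested 5 were higher (21.7%) and 13 lower (56.5%), against 24.4% and 23.2% of all tested genes. HSPA5, the main HSP70 of that compartment, had 593 and 621 CPM in knockdown against 858, 872 and 911 CPM in control (-0.54 ± 0.05, edgeR adjusted p = 7.0e-09), and the direct comparison with CFIm68 knockdown gave -0.47 ± 0.05. CRELD2, a secreted stress protein, had 19.3 and 21.1 CPM against 33.2, 33.9 and 40.4 CPM (-0.82 ± 0.09). PDIA3, a disulfide isomerase, fell by 0.24 on the log2 scale, but stood far above its level in CFIm68 knockdown, with 522 CPM on average in CFIm25 knockdown and 122 CPM in CFIm68 knockdown (2.10 ± 0.06). The number of rises depended on single libraries, at 2 without the second knockdown library and 3 without the first, the second control or the third control. Among lysosomal genes 6 of 25 rose (24%) and 8 fell (32%), the rises near the share of all tested genes. Relative to neighbours 2 rose (8%) and 10 fell (40%), against 22.6% of all tested genes in each direction. Without the second knockdown library 3 rose and 9 fell. NEU1, a sialidase, had 73.2 and 79.2 CPM against 142, 143 and 159 CPM (-0.96 ± 0.07), and LAMP1, a membrane glycoprotein, had 97.3 and 102 CPM against 151, 149 and 167 CPM (-0.64 ± 0.06).

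Of 25 sterol synthesis genes 6 rose, near the 24.4% of all tested genes, and 10 fell, against 23.2% of all. The feedback regulator INSIG1 had 198 and 232 CPM in knockdown against 125, 126 and 111 CPM in control (0.84 ± 0.10). The mevalonate enzyme gene MVD on chromosome 16 had 18.7 and 21.5 CPM against 39.99, 40.2 and 41.6 CPM (-1.01 ± 0.09). In membrane traffic 23 of 55 RAB GTPase genes rose (41.8%) and 9 fell (16.4%), against 24.4% and 23.2% of all tested genes. Without the second knockdown library 13 rose and 4 fell. RAB27A, of secretory organelles, had 25.9 and 26 CPM against 17.4, 14.6 and 13.6 CPM (0.77 ± 0.10). RAB9B, of endosome to Golgi transport, had 5.72 and 5.09 CPM against 15.9, 15.3 and 14.9 CPM (-1.52 ± 0.12). Compared directly with CFIm68 knockdown, 2 RAB genes were higher (3.64%) and 11 lower (20%), against 13.2% and 11.1% of all tested genes. The zinc importer SLC39A10 had 93.1 and 98.1 CPM against 209, 209 and 185 CPM (-1.07 ± 0.08). Of 218 solute carrier genes 57 rose (26.1%) and 56 fell (25.7%), near the shares of all tested genes.

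Proliferation genes did not move in one direction. Of 45 DNA replication genes 14 rose (31.1%) and 11 fell (24.4%), and of 35 mitotic genes 6 rose (17.1%) and 10 fell (28.6%). Over all tested genes 24.4% rose and 23.2% fell. Relative to neighbours 40% of the replication genes rose and 22.2% fell, and 17.1% and 34.3% of the mitotic genes. Over all tested genes 22.6% did so in each direction. RRM2, a ribonucleotide reductase subunit, had 230 and 229 CPM in knockdown against 160, 156 and 166 CPM in control (0.51 ± 0.06). CENPE, a kinetochore motor, had 241 and 223 CPM against 346, 337 and 295 CPM (-0.49 ± 0.07). Of 378 genes with ZNF names 77 rose (20.4%) and 69 fell (18.3%), below the 24.4% and 23.2% of all tested genes. Without the first knockdown library 46 rose and 61 fell. ZNF480 had 40.9 and 40.1 CPM against 17.1, 16.9 and 17.5 CPM (1.24 ± 0.08). Of 138 tested lincRNA genes 25 rose (18.1%) and 23 fell (16.7%), also below the shares of all tested genes. RAB30-DT had 13.0 and 11.9 CPM against 7.09, 6.50 and 6.38 CPM (0.90 ± 0.11), and MIR34AHG, the host of miR-34a, had 18.5 and 15.4 CPM against 37.0, 51.7 and 46.0 CPM (-1.42 ± 0.11).

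The difference between the 2 knockdowns was itself tested, to see which changes went beyond those shared with loss of CFIm68. Of 12080 genes 1589 were higher in CFIm25 knockdown than in CFIm68 knockdown (13.2%) and 1340 lower (11.1%), 24.2% in all, and at least 2-fold differences were found in 45 (0.373%) and 35 (0.29%). Without the first CFIm25 knockdown library the counts were 874 and 591, and without the second 1161 and 857. Of the 20 largest rises against control 8 differed between the knockdowns, and of the 20 largest falls 7. All 20 rises and all 20 falls were called in the same direction in CFIm68 knockdown against the same controls. Over all 12080 tested genes, called or not in CFIm25 knockdown, this held for 6184. In CFIm25 overexpression 12 of the rises and 12 of the falls were called in the same direction, and 2 and 1 in the opposite one. Over all tested genes 4657 were called in the same direction there and 2197 in the opposite one. GNPDA1, a deaminase of glucosamine phosphate, was above its CFIm68 knockdown level beside PDIA3. It averaged 202 CPM in CFIm25 knockdown and 67.9 CPM in CFIm68 knockdown (1.57 ± 0.06). SNX16, a sorting nexin of endosomes, averaged 13.96 CPM in CFIm25 knockdown and 28.8 CPM in CFIm68 knockdown (-1.06 ± 0.10, edgeR adjusted p = 5.0e-09), although it was above control in both.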

How the data were processed

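RNA-seq counts per gene were used as the authors deposited them, raw and not normalized, in 1 table of 14 libraries. Per the labels' protocols, libraries were made with a stranded mRNA kit from total RNA. Per the submitters' processing notes, reads were trimmed with cutadapt 1.16 and aligned with STAR 2.7.1a to hg38; the counting program, its gene annotation and its strand setting are not stated. From these counts, genes were filtered with edgeR 4.0.16 (filterByExpr, minimum count 10, minimum total 15), which kept 12080 of 18006 genes. They were scaled with TMM factors and fitted with the quasi-likelihood model over all 14 libraries, 1 mean per group, in R 4.3.3 (common biological coefficient of variation 0.0501). P-values were two-sided and Benjamini-Hochberg adjusted over all tested genes with a threshold of 0.05, and standard errors were derived from the F statistic. Library totals of 17734490 to 33895308 limit the precision of genes at low counts.

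Gene features came from GENCODE 29 (hg38) and promoters from RefSeq. Genes and 71 lists were chosen with earlier results of these data known. Named genes are the targeted subunits, the 20 largest rises and falls at 5 CPM or more, the 10 at 200 CPM or more, the leading members of each list, the genes that differ most between the knockdowns or the knockdown libraries, and noncoding genes; ATF4, CHAC1, GARS1, CDKN1A and SLC3A2 were added after their values were seen. Genes taken for the largest changes, for the knockdown difference or as noncoding also had to be called. Their knockdown and control libraries also could not overlap. Replicate numbers were not used to pair the libraries in the main fit. Alternatives were other size factors and filters, DESeq2 1.42.0, limma-voom (limma 3.58.1), a replicate block, a GC content and length correction, removal of the median of 50 neighbouring genes (added after seeing the data), another reference group and leaving out each library. The test was checked on simulated counts.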

Additional observations from a re-analysis of the deposited data

Results flagged for a closer look

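In 5 named genes the CFIm25 knockdown libraries lay on one side of control and the CFIm68 knockdown libraries on the other, and the direct test between the knockdowns passed. The 2 knockdowns were compared with the same 3 control libraries, whereas the direct test uses none of them. CPSF6 is the target of the CFIm68 siRNA: it averaged 533 CPM in CFIm25 knockdown and 41.6 CPM in CFIm68 knockdown, with 268 CPM in control (direct difference 3.68 on the log2 scale, edgeR adjusted p = 2.9e-28). GNPDA1 averaged 202 CPM in CFIm25 knockdown and 67.9 CPM in CFIm68 knockdown, with 153 CPM in control (1.57, edgeR adjusted p = 3e-17). SLC7A11, the cystine importer, averaged 179 CPM in CFIm25 knockdown and 63.7 CPM in CFIm68 knockdown, with 81.6 CPM in control (1.48, edgeR adjusted p = 2.3e-10). ATF4 averaged 314 CPM in CFIm25 knockdown and 155 CPM in CFIm68 knockdown, with 209 CPM in control (1.02, edgeR adjusted p = 4.9e-12). GARS1, the glycyl-tRNA synthetase, averaged 345 CPM in CFIm25 knockdown and 211 CPM in CFIm68 knockdown, with 242 CPM in control (0.71, edgeR adjusted p = 2.2e-09). Over all tested genes 110 had such opposite calls, of which 82 were higher in CFIm25 knockdown and 28 lower.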

How the results depend on the processing

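Against control, the count of changed genes was 5746 and ranged from 5364 (DESeq2) to 6185 (GC content and length correction). With 1 library left out it ranged from 4363 to 5282. Against the CFIm25 overexpression libraries in place of control, 6780 genes differed. The replicate block gave 3006 higher and 2884 lower. Between same-numbered knockdown and control libraries, the deviations from the group means correlated at -0.058 and -0.063. With only 2 knockdown libraries their deviations mirror each other (correlation -1), so this cannot show whether same-numbered libraries share more than a number. In the direct comparison of the knockdowns, the 5 libraries of those groups alone gave 2052 lower genes instead of 1340; leaving out 1 library gave 1465 to 2384 differing genes, 874 to 1283 higher and 591 to 1101 lower. With the CFIm25 overexpression libraries as the reference no control library enters, so this is another comparison and not another processing. Each value is then the knockdown change less the overexpression change, both against control. A sign turns where overexpression moved a gene further in the same direction than knockdown did. With that reference 52.2% of calls stayed in their direction, and why genes moved in overexpression was not tested. Signs then turned for PCDH19 (-0.74), TSC22D3 (-0.56), CHAC1 (-0.63), ASNS (-0.997), SLC7A11 (-1.55), PCK2 (-0.70), DDIT3 (-0.96), SLC3A2 (-0.95), SLC7A1 (-0.77), GARS1 (-0.31) and AARS1 (-0.15). They also turned for FASN (0.51), VARS1 (0.074), CDKN1A (0.62), RPS27L (0.41), EIF1AX (0.066), CPSF1 (0.14), HSPA5 (0.73), CRELD2 (0.048), PDIA3 (0.24) and AGO1 (0.61). The GC content and length correction gave RHOT2 -0.49, RPS27L -0.49, NDUFB1 0.42, CPSF1 -0.28 and GNPDA1 0.26, all still called. In simulated counts for this comparison, 87.9% of 66 genes changed 1.5-fold and 100% of 66 changed 2-fold were recovered, and smaller changes less often.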
